A study of Danio rerio with 18 samples.

Results

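The genes described here encode the factors that carry out translation and the enzymes that charge tRNAs with amino acids. They were chosen by name, with earlier results of these data known: probe sets with a single gene symbol beginning with eif or eef and a number, with etf1, or with the names of the aminoacyl-tRNA synthetases that carry the suffix 1, plus farsa and farsb. This gave 81 genes on 107 probe sets, out of 8793 distinct symbols on the array, and the brightest probe set stood for each gene. Of these 81 genes, 78 passed a filter on dim probe sets and were tested: 50 initiation factor genes, 12 elongation and release factor genes and 16 synthetase genes. The other 3, eef1a1b, eef2l2 and eif4e1b, reached an intensity of at most 26.5 on any array and were not tested.

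Initiation factors bring the initiator tRNA and the small ribosomal subunit to the start codon of an mRNA. eIF2 carries the initiator tRNA, eIF3 is the large scaffold on the small subunit, and the eIF4 group binds the cap and unwinds the leader. Elongation factors deliver charged tRNAs and move the ribosome along, and the release factor frees the finished protein at the stop codon. Translation is held back by eIF4E-binding proteins, by kinases of eIF2 and by the kinase of eEF2. Growing embryonic tissues such as muscle and the neural tube make protein at a high rate.

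The data are 18 Affymetrix arrays of flow-sorted cells, 3 biological replicates for each of 6 groups, from zebrafish at 14 to 16 somites raised at 28 °C. In wild-type embryos carrying the miR-206 reporter, GFP marked muscle cells, and the unmarked cells of the body (called the rest) were collected too. In Dicer mutants carrying the miR-124 reporter, a line the labels call MZ without spelling it out, GFP marked cells of the central nervous system (CNS), and the rest was again collected. Wild-type embryos carrying the miR-124 reporter were sorted into the same fractions. Dicer cuts microRNA precursors into mature microRNAs. The reporter defines each GFP-positive fraction, so the GFP-negative cells of the miR-206 line hold the CNS, and those of the miR-124 lines hold the muscle. The values are the authors' linear intensities, changes are log2 fold changes of intensity + 16 with their standard error (SE), and a gene was called higher or lower at an adjusted p under 0.05 in limma. Lower RNA per cell and fewer cells of a type cannot be told apart in such bulk samples.

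The sorted fractions carried the markers of their labels. All 13 skeletal muscle markers were higher in muscle than in its rest, with summed intensities of 16458 to 23240 in muscle and 806 to 1098 in the rest. Neural markers summed to 8027 to 9244 in mutant CNS cells and 2854 to 4250 in the mutant rest. In wild type they summed to 7925 to 8540 in CNS cells and 2271 to 2701 in the rest of the miR-124 line, so both rests kept neural signal. Epidermal markers summed to 3394 to 5798 in mutant CNS cells but to 702 to 1352 in wild-type CNS cells, and 6 of 7 were called higher there. The intensity of dicer1 in CNS cells was 140 ± 60.2 for mutants and 245 ± 18.3 for wild type (mean ± SD, n = 3 each), a change of -0.81 with an adjusted p of 0.022. In the GFP-negative cells it averaged 93.5 ± 22.8 in mutants and 198 ± 87.9 in wild type, a change of -0.90 with an adjusted p of 0.0117.

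The translation genes were mostly bright and varied little between the groups. Between the highest and the lowest of the 6 group means, the median range was 0.71 on the log2 scale for the 78 genes and 0.85 for all 9548 features tested. The range exceeded 1 for 16 of the 78 genes (20.5%), against 40.1% of all features. eef2k, the kinase that switches eEF2 off, had the widest range at 2.01, followed by etf1b (1.84), the release factor eRF1, and eif4ebp1 (1.61), an eIF4E-binding repressor. At the other end, eif3eb, a copy of the eIF3e subunit gene, ranged over 0.14 and eif4enif1, an eIF4E transporter, over 0.18. The highest group mean was in muscle for 57.7% of the genes, against 24.6% of all features. The lowest was in mutant CNS cells for 38.5%, against 20.7% of all features. On their brightest probe sets, 24 genes were called in none of the 8 comparisons, among them the synthetase genes farsa, gars1, iars1, mars1, qars1, vars1 and yars1, and the helicase gene eif4a3 of the exon junction complex. eif4g2a was also in this set, but its other probe set was lower in muscle than in its rest (-0.57, adjusted p = 0.00437) and than in CNS cells (-0.79, adjusted p = 0.000201).

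**Figure D1:**
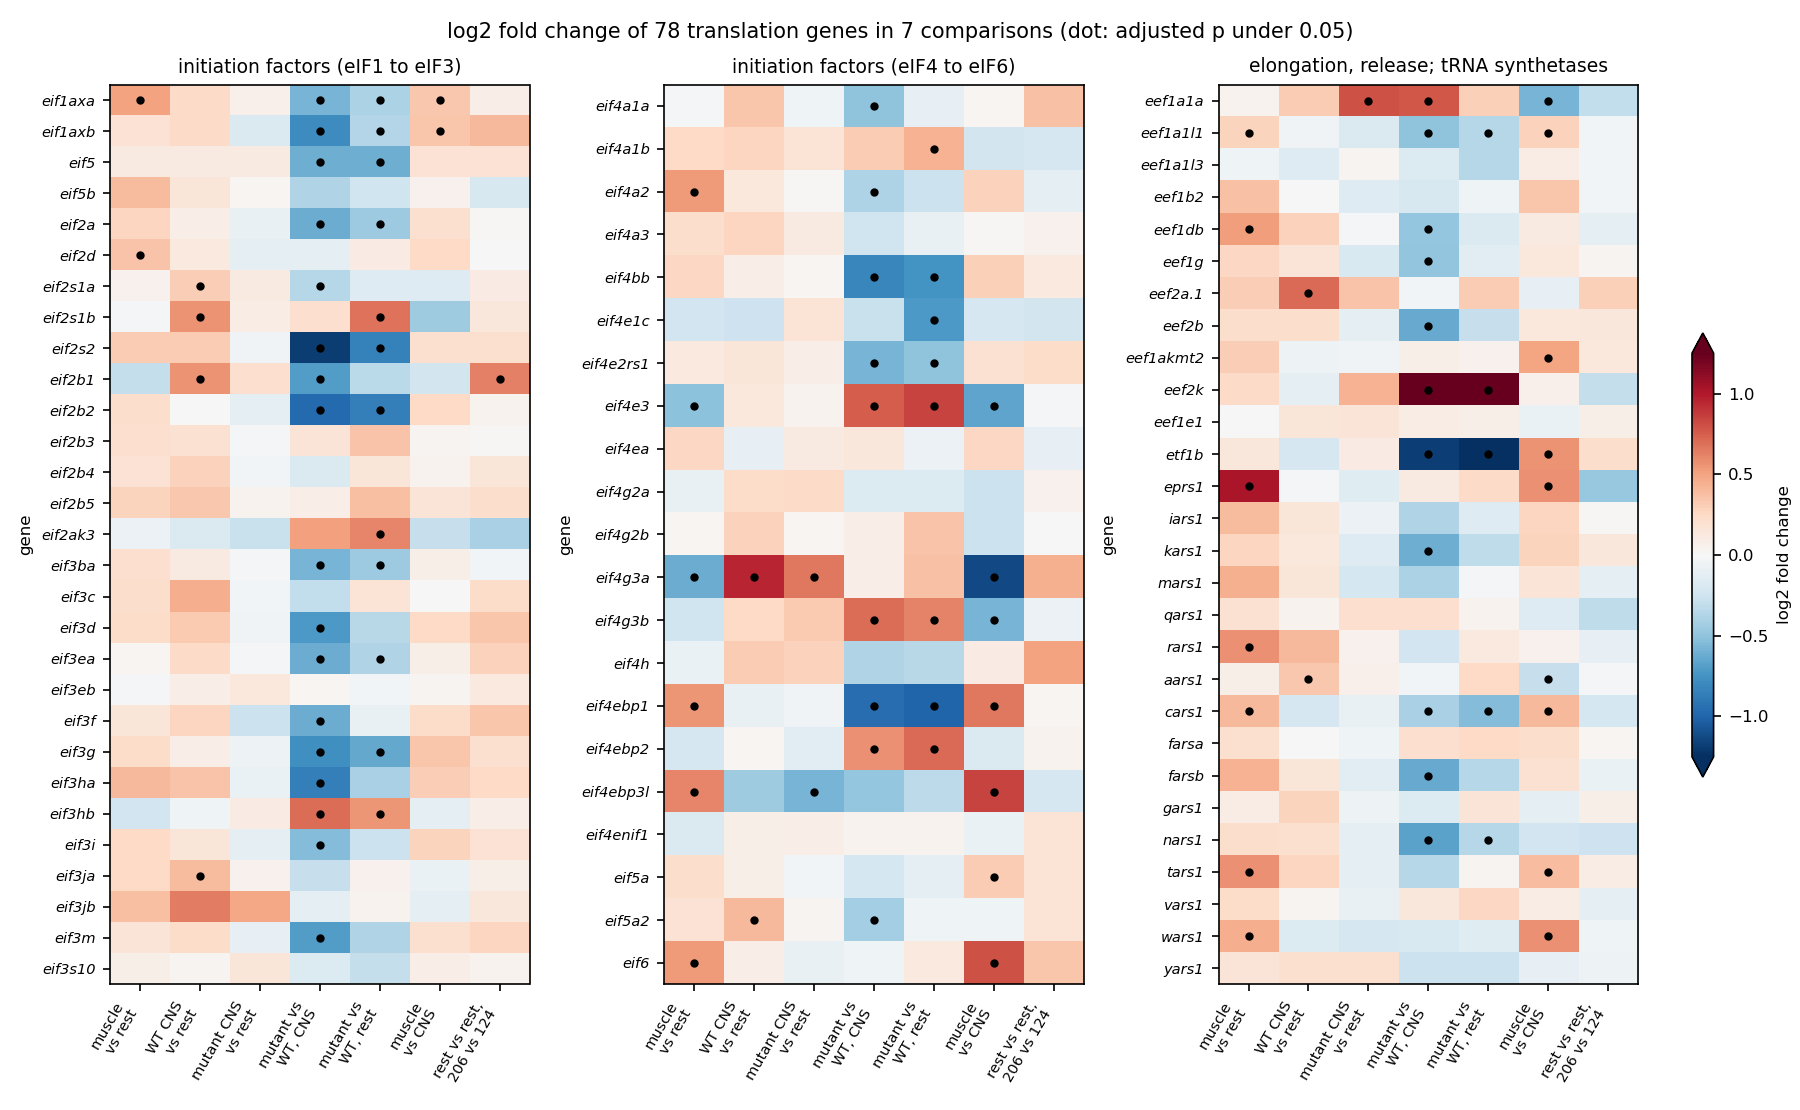
Colour gives the log2 fold change of each of the 78 translation genes (rows, grouped by role) in 7 comparisons (columns), and a black dot marks an adjusted p under 0.05. Changes of eef2k (1.83 and 1.28) and etf1b (-1.49) lie beyond the ends of the colour scale. Called genes are mostly red in the muscle columns and mostly blue in the column of mutant against wild-type CNS cells.

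Muscle cells were compared with the rest of the miR-206 line. Of the 78 translation genes, 13 were higher in muscle and 2 were lower, while 13.1% of all features were called higher and 23.1% lower, so the share of genes called higher (16.7%) was near the background. The median change was 0.22 for the translation genes and -0.06 for all features. Of the 16 synthetases 5 were higher, none was lower, all changes were positive and their median was 0.34. Of 14 genes for eIF3 subunits none was called, and their median was 0.21. When the replicate number was used as a block, 21 genes were higher instead of 13, the additions being eef1b2, eef1g, eif2s2, eif3ha, farsb, iars1, kars1 and mars1.

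eprs1, the enzyme that charges both glutamate and proline tRNAs, changed most. Its intensities were 1569, 1318 and 1326 in muscle, against 591, 631 and 849 in the rest. All 3 muscle arrays lay above all others in the miR-206 line, and the change was 1.02 (SE 0.16, adjusted p = 2.53e-05), or 2.03-fold. tars1, the threonyl-tRNA synthetase, read 935, 754 and 948 in muscle and 581, 621 and 550 in the rest, a change of 0.57 (adjusted p = 0.00606). The other synthetases called higher were those for arginine (rars1, 0.57), tryptophan (wars1, 0.45) and cysteine (cars1, 0.41). These calls were lost without any one of 3 arrays for rars1, 6 for wars1 and 4 for cars1, whose other probe set was not called (0.20). aimp1a and aimp2, scaffold proteins of the complex in which eprs1, rars1 and other synthetases are held, were also higher, by 0.58 and 0.57 (adjusted p = 0.00615 and 0.0123). Of 6 measured mitochondrial translation factors 3 were higher, gfm1 (0.44), tufm (0.59) and mrrf (0.66), and of 5 mitochondrial synthetases fars2 was (0.45). fars2 was dim, averaging 31.4 in muscle and 18.4 in the rest. It may thus have passed the filter through the muscle arrays, in which it was higher.

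Of 4 genes for eIF4E-binding repressors, 2 were higher in muscle. eif4ebp1, which blocks the cap-binding protein eIF4E, read 1095, 1315 and 1152 in muscle and 849, 723 and 844 in the rest, a change of 0.55 (adjusted p = 0.0021). eif4ebp3l, a related repressor, read 464, 441 and 509 in muscle and 347, 225 and 350 in the rest, a change of 0.61 (adjusted p = 0.0129). The groups did not overlap for either gene. eif4ebp2, which averaged 1116 in muscle and 1297 in the rest, and eif4enif1 were not called. eif6, which keeps the ribosomal subunits apart until the large one is mature, read 846, 974 and 918 in muscle and 780, 495 and 638 in the rest, a change of 0.53 (adjusted p = 0.0101).

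Among positively acting factors, eif1axa (0.50), which helps the scanning ribosome find the start codon, the helicase eif4a2 (0.53) and eef1db (0.52), a subunit of the exchange factor that recharges eEF1A, were higher. eif4a2 read 1062, 1371 and 1430 in muscle and 732, 934 and 991 in the rest, with adjusted p = 0.00404. eef1db overlapped between the groups, with 2574, 1959 and 2781 in muscle and 1635, 1428 and 1998 in the rest (adjusted p = 0.00617). eif2d (0.36), an alternative carrier of initiator tRNA, and eef1a1l1 (0.28), which delivers charged tRNAs, completed the list with adjusted p of 0.0373 and 0.0492. The calls of eprs1, tars1, eif4ebp1, eif1axa, eif4a2 and eef1db held under every alternative, though the second probe set of eif1axa was not called (0.17). Without any one of 3 arrays the count of genes higher in muscle moved by more than 1.5 times: 23 without replicate 1 and 8 without replicate 2 of the rest, and 7 without replicate 3 of muscle.

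Both genes that were lower in muscle belong to the cap-binding complex. eif4g3a, a scaffold that links the cap to the ribosome, read 64.1, 68.2 and 62.9 in muscle and 88.5, 125 and 115 in the rest, a change of -0.62 (adjusted p = 0.0088). eif4e3, an atypical cap-binding protein in mammals, read 214, 281 and 196 in muscle and 312, 359 and 326 in the rest, a change of -0.51 (adjusted p = 0.00696). Neither gene's groups overlapped, and neither was called lower once arrays were centred on their medians. Proliferation genes moved with this comparison: 9 of 13 measured were lower in muscle and none was higher, with summed intensities of 9941 to 11234 in muscle and 15421 to 18279 in the rest. Epidermal markers summed to 196 to 612 in muscle against 5694 to 6470 in the rest, and red blood cell markers to 66.9 to 1018 against 3408 to 6032. Their part in the result was not tested.

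CNS cells were set against the rest of the body in the wild-type miR-124 line, where 8 translation genes were higher and none was lower (1 at an unadjusted p under 0.05 in limma). Among all features 14.5% were higher and 18.3% lower, so 10.3% of translation genes called higher was under the background share. eif4g3a, which had been lower in muscle, was the gene with the smallest adjusted p. It read 156, 163 and 163 in CNS cells and 56.6, 104 and 71.9 in the rest, a change of 0.95 (SE 0.18, adjusted p = 0.000244), or 1.93-fold. It was the only one of the 8 called under all of the alternative settings.

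The other 7 genes were spread over the roles. eif2s1a and eif2s1b both encode eIF2 alpha, the subunit that is phosphorylated to restrain initiation, and changed by 0.31 and 0.56 (adjusted p = 0.0434 and 0.024). eif2s1b overlapped between groups, with 605, 611 and 441 in CNS cells and 409, 241 and 491 in the rest. eif2b1, a subunit of the exchange factor that reloads eIF2, changed by 0.56 (adjusted p = 0.0234). eef2a.1, a translocase gene, read 352, 227 and 212 in CNS cells and 181, 120 and 159 in the rest, a change of 0.71 (adjusted p = 0.0184). eif5a2 (0.41), which helps ribosomes past difficult sequences, eif3ja (0.40), a loosely held eIF3 subunit, and aars1 (0.34), the alanyl-tRNA synthetase, had adjusted p of 0.00679, 0.0403 and 0.0241, and the other probe set of eif5a2 was not called (-0.05). Leaving out a single array changed the count of 8 widely: 1 without CNS replicate 1, 5 without CNS replicate 2, 13 without replicate 1 of the rest and 3 without replicate 2 of the rest. Of 13 proliferation genes 11 were higher in CNS cells, with sums of 19999 to 22134 in CNS cells and 12890 to 14863 in the rest, and their part was not tested.

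In the Dicer-mutant line, 2 translation genes were higher in CNS cells than in the rest and 1 was lower, where 6.49% of all features were higher and 9.03% lower. Epidermal markers overlapped between these fractions, with sums of 3394 to 5798 in mutant CNS cells and 4890 to 6968 in the mutant rest. Their part was not tested. eif4g3a was again higher, with 144, 202 and 171 in mutant CNS cells and 109, 118 and 83.9 in the mutant rest, a change of 0.66 (SE 0.18, adjusted p = 0.0117), and this call was lost without replicate 2 of the CNS cells or replicate 3 of the rest. It was the one gene higher in both CNS fractions, 12.5% of the 8 in wild type and 50% of the 2 in the mutant, and these comparisons share no array. The same overlap over all features is not given here. eef1a1a, an eEF1A gene, was dim throughout, with 32.3, 43 and 41.8 in mutant CNS cells and 12, 18.9 and 16 in the mutant rest. Its change of 0.80 (adjusted p = 0.00173) was not called with a pseudocount of 1. Outside the mutant CNS arrays eef1a1a read at most 22.4, so it passed the filter largely through the group in which it was higher. eif4ebp3l read 201, 153 and 186 in mutant CNS cells and 251, 260 and 322 in the mutant rest, a change of -0.58 (adjusted p = 0.0365), and this call was lost without any one of 5 of these 6 arrays. The difference between the sort effects in mutant and wild type was itself tested, and 0 of the 78 genes passed in limma, with 1 above and 4 below zero at an unadjusted p under 0.05, beside 2.27% of all features called higher and 0.304% lower. eif3f, an eIF3 subunit, was nearest at -0.54 (SE 0.22, adjusted p = 0.25).

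Mutant CNS cells were then compared with wild-type CNS cells, which gave the most calls. Of the 78 genes 31 were lower and 6 were higher, while 15.4% of all features were lower and 19.3% higher. The median change was -0.29 for translation genes and 0.02 for all features. In the GFP-negative cells, mutant against wild type, 17 genes were lower and 8 higher, beside 17.4% of all features lower and 17.5% higher, with medians of -0.11 and near 0. The median of -0.29 in CNS cells was -0.14 after cyclic loess normalization. That of -0.11 in the rest was -0.04 after quantile and 0.00 after cyclic loess normalization, and -0.02 without replicate 1, -0.17 without replicate 2 of the wild-type rest and -0.07 without replicate 2 of the mutant rest. The lower lists shared 16 genes, 51.6% of the CNS list and 94.1% of the list from the rest. The higher lists shared 5, which is 83.3% and 62.5%. These fractions share no array, but those of each line were sorted from the same kind of embryos. No gene was called in opposite directions in the 2 fractions. Corresponding overlaps over all features are not given here, so this sharing is not shown to be particular to the translation genes. In the rest, 10 genes were lower without mutant replicate 2 and 5 were higher without mutant replicate 3.

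eef2k, which halts elongation by phosphorylating eEF2, changed more in CNS cells than any other of the 78 genes, and in the rest only etf1b changed more. Its intensities were 176, 238 and 185 in mutant CNS cells, against 30.4, 58.5 and 47 in wild-type CNS cells. In the rest of the body they were 136, 170 and 126 in mutants and 37.5, 53.2 and 59.5 in wild type. Every mutant array lay above every wild-type array, those of the miR-206 line included (31.6 to 48.8). The changes were 1.83 (SE 0.18, adjusted p = 4.91e-07) in CNS cells and 1.28 (SE 0.18, adjusted p = 3.24e-05) in the rest, or 3.55-fold and 2.43-fold. Between the fractions they differed by 0.55 (SE 0.25), which did not pass the test (adjusted p = 0.347).

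Other inhibitors of translation moved in different directions. eif4ebp2 read 1768, 1913 and 1973 in mutant CNS cells and 1380, 1176 and 1244 in wild-type CNS cells, a change of 0.57 (adjusted p = 0.00177). In the rest it read 1959, 2025 and 2195 in mutants and 1196, 1216 and 1337 in wild type, a change of 0.71 (adjusted p = 0.000327). Its relative eif4ebp1 went the other way. It read 397, 348 and 386 in mutant CNS cells and 741, 666 and 826 in wild-type CNS cells, and 398, 403 and 362 in the mutant rest against 902, 681 and 804 in the wild-type rest. None of these groups overlapped, and the changes of eif4ebp1 were -0.95 and -1.0 (adjusted p = 2e-05 and 1.48e-05). eif4ebp3l, with changes of -0.48 and -0.33, was not called in either fraction. eif2ak3, the stress-activated eIF2 kinase PERK, was called higher in the rest only, at 0.61 (adjusted p = 0.0454), beside 0.51 in CNS cells (adjusted p = 0.0918), and the difference between fractions did not pass. The call of eif2ak3 was lost with a pseudocount of 1, without the filter, after cyclic loess normalization and without any one of 11 arrays. pdcd4b, named from a list of translation partners outside the 81 genes, encodes an inhibitor of the eIF4A helicase and was higher in mutants by 1.81 in CNS cells and 1.70 in the rest (adjusted p = 1.04e-05 and 2.69e-05).

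**Figure D2:**
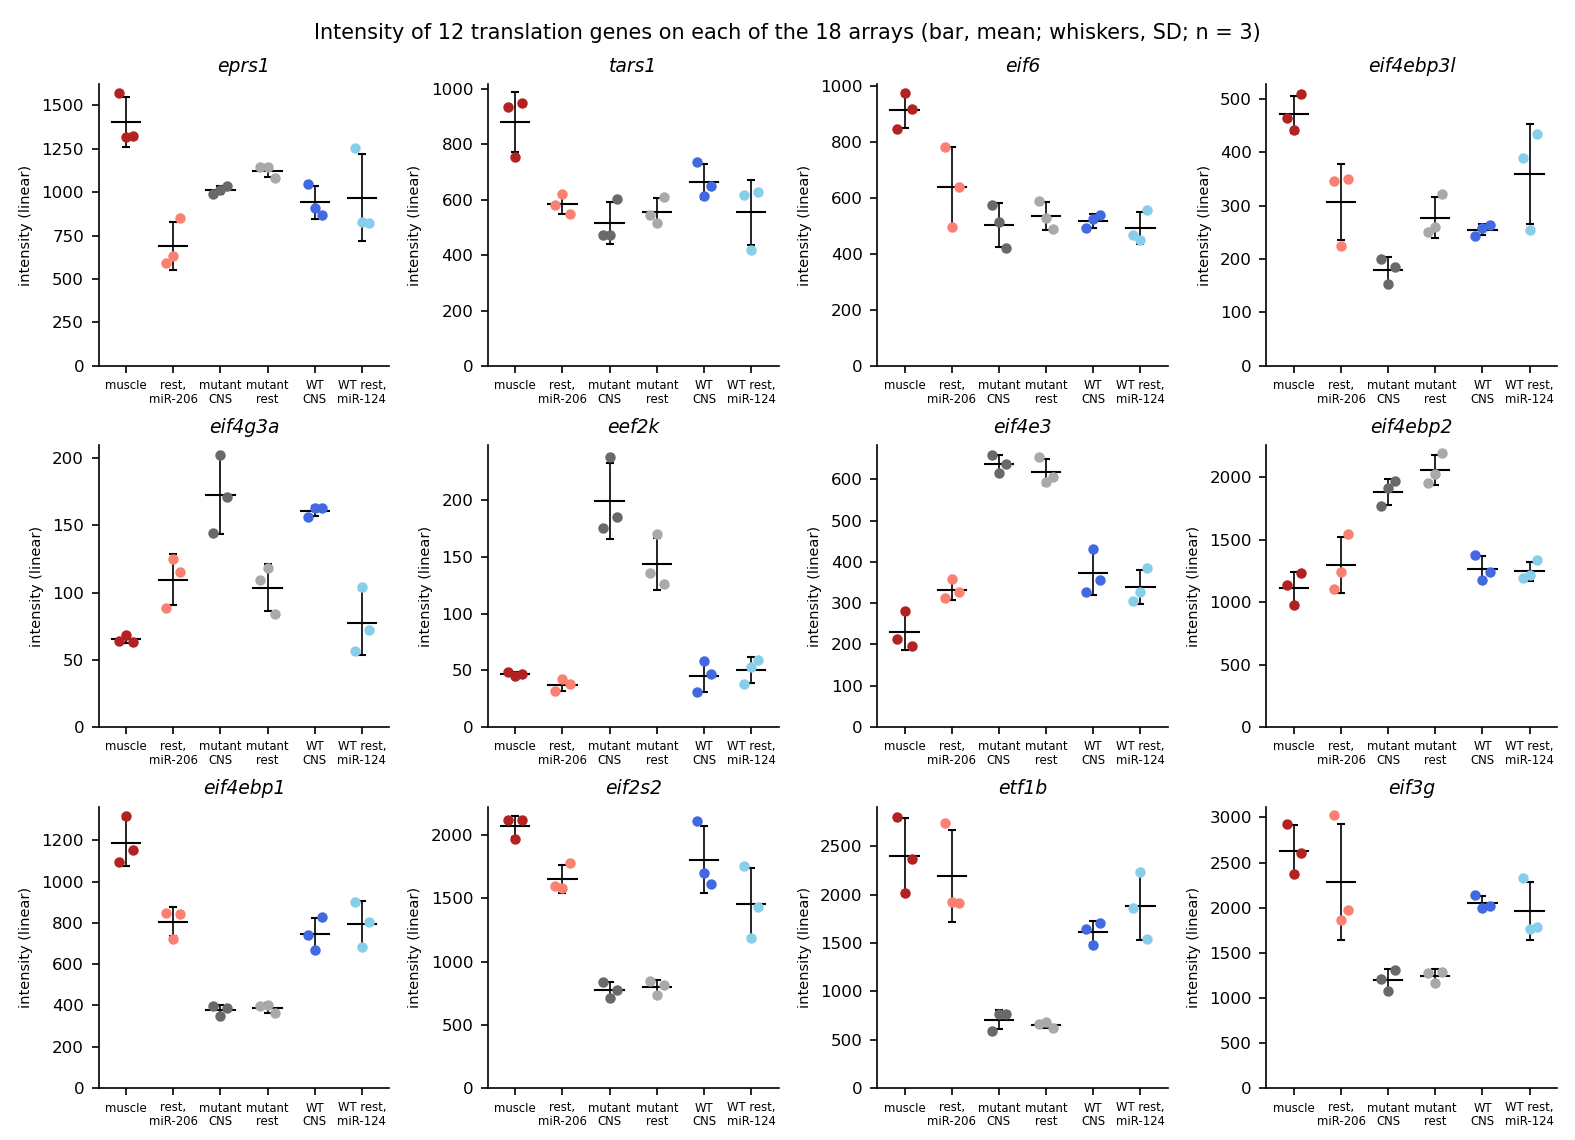
Points are the linear intensities of 12 translation genes on each of the 18 arrays, by group, with the mean (bar) and SD (whiskers, n = 3). Each axis starts at 0 and has its own scale. For eef2k, eif4e3 and eif4ebp2 all mutant arrays lie above all others, and for eif4ebp1, eif2s2, etf1b and eif3g below all others. eprs1 is highest in muscle, and eif4g3a is highest in the CNS fractions.

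Cap-binding factors other than the repressors were mixed. eif4e3 read 658, 615 and 637 in mutant CNS cells and 328, 432 and 357 in wild-type CNS cells, a change of 0.76 (adjusted p = 0.000392). In the rest it changed by 0.84 (adjusted p = 0.000195). eif4g3b, another eIF4G scaffold gene, was higher by 0.70 in CNS cells and 0.62 in the rest (adjusted p = 0.00195 and 0.00511), and of its copy eif4g3a the dimmer of 2 probe sets was higher in both fractions (0.77 and 0.77, adjusted p = 0.000353 and 0.000429), while the brighter one was not called (0.08 and 0.37). eif4bb, which assists the helicase, read 864, 722 and 770 in mutant CNS cells and 1643, 1519 and 1080 in wild-type CNS cells, a change of -0.82, and changed by -0.75 in the rest. eif4e2rs1, related to a cap-binding protein that competes with eIF4E in mammals, changed by -0.58 and -0.50. eif4e1c, an eIF4E gene, was lower in the rest, with a change of -0.72 (adjusted p = 0.0163) beside -0.28 in CNS cells (adjusted p = 0.332). Its other probe set was lower in both, with changes of -0.71 in CNS cells and -0.73 in the rest (adjusted p = 0.000319 and 0.000337). Of the eIF4A helicase genes, eif4a1b was higher in the mutant rest (0.43, adjusted p = 0.0155) and had a change of 0.32 in CNS cells (adjusted p = 0.0591). eif4a1a and eif4a2 were lower in mutant CNS cells (-0.50 and -0.39), and both calls were lost after quantile (-0.22 and -0.33) and cyclic loess normalization (-0.12 and -0.21).

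Of 14 genes for eIF2 and other initiator tRNA carriers, eIF2B and start codon selection, 8 were lower and none higher in mutant CNS cells, and 6 were lower and 1 higher in the mutant rest. eif2d, eif2b3, eif2b4, eif2b5 and eif5b were called in neither. Of all features, 15.4% were lower and 19.3% higher in mutant CNS cells, and 17.4% lower and 17.5% higher in the mutant rest. In the brightest 25% of all features, where some of the 14 genes lie, 26.3% were lower in CNS cells and 21.1% in the rest. eif2s2, the beta subunit of eIF2, read 841, 712 and 779 in mutant CNS cells and 2111, 1704 and 1611 in wild-type CNS cells, a change of -1.19 (SE 0.14, adjusted p = 2.79e-06). In the rest it read 843, 734 and 816 in mutants and 1754, 1185 and 1434 in wild type, a change of -0.84 (adjusted p = 0.000141). Of the alpha subunit genes, eif2s1a was also lower in CNS cells, with a change of -0.36 (adjusted p = 0.0201), a call lost after cyclic loess normalization and without any one of 3 arrays. eif2s1b was higher in the rest by 0.68, with 597, 534 and 663 in mutants against 409, 241 and 491 in wild type (adjusted p = 0.00768). eif2b2, of the exchange factor that reloads eIF2, changed by -0.97 and -0.85 (adjusted p = 0.00411 and 0.0104). eif1axa, eif1axb and eif5, which select the start codon, were all lower in both fractions on their brightest probe sets. The other probe set of eif1axa (-0.32 and -0.25) and both others of eif1axb (-0.20 and -0.22 in CNS cells) were not called. eif1axb read 394, 431 and 424 in mutant CNS cells and 830, 769 and 607 in wild-type CNS cells, a change of -0.79 (adjusted p = 7.71e-05). In the rest its change was -0.37 (adjusted p = 0.0273), a call lost without any one of 4 arrays, after centring and with the mean over probe sets. eif5, which triggers the hydrolysis of GTP on eIF2, changed by -0.61 in each fraction.

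Subunits of eIF3 were lower in mutant CNS cells for 8 of 14 genes, with a median change of -0.56, where 15.4% of all features were lower. After cyclic loess normalization 3 were lower and the median was -0.23. The 8 were eif3ba, eif3d, eif3ea, eif3f, eif3g, eif3ha, eif3i and eif3m. eif3g read 1204, 1070 and 1310 in mutant CNS cells and 2135, 1992 and 2020 in wild-type CNS cells, a change of -0.77 (adjusted p = 0.000775). eif3ha read 582, 500 and 606 in mutant CNS cells and 1187, 973 and 920 in wild-type CNS cells, a change of -0.85 (adjusted p = 0.00109). In the rest 3 of the 14 were lower, eif3ba, eif3ea and eif3g, with a median of -0.28, where 17.4% of all features were lower. After quantile and after cyclic loess normalization 1 was lower, with medians of -0.13 and -0.12. The calls of eif3ba and eif3ea were lost in both, and that of eif3ea also without any one of 9 arrays. The copy eif3hb was higher in both fractions, by 0.70 and 0.55 (adjusted p = 0.00291 and 0.0152), at intensities of 46.5, 47.7 and 64.3 in mutant CNS cells and 32, 21.4 and 25.3 in wild-type CNS cells, near the median of the arrays (31.1 to 45.2).

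Among the elongation and release factors etf1b was the second most changed in CNS cells, after eef2k, and the most changed in the rest. It read 589, 765 and 767 in mutant CNS cells and 1646, 1482 and 1703 in wild-type CNS cells, a change of -1.18 (SE 0.16, adjusted p = 2.22e-05). In the rest it read 662, 679 and 616 in mutants and 1860, 2235 and 1540 in wild type, a change of -1.49 (adjusted p = 2.25e-06), or 2.80-fold lower. The other 3 probe sets of etf1b had changes of -1.06, -0.60 and -0.52 in CNS cells, with the first and the second also called lower, and of -0.40, -0.17 and -0.54 in the rest, with none called. eef1a1l1, eef1db, eef1g and eef2b were also lower in CNS cells, with changes of -0.63 to -0.48, but all 4 calls were lost after quantile and after cyclic loess normalization, where eef2b stood at -0.03 and -0.06 and eef1db at -0.27 and -0.16. eef1a1l1 changed by -0.36 in the rest, a call lost in the same way. In CNS cells eef1a1a read 32.3, 43 and 41.8 in mutants and 15.5, 10.9 and 22.4 in wild type and was higher by 0.78 (adjusted p = 0.00139). It passed the filter largely through these mutant arrays, so this call is not independent of the filter.

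Among the 16 synthetases, 4 (25%) were lower in mutant CNS cells, beside 15.4% of all features, and none was higher. nars1, for asparagine, read 1474, 1495 and 1673 in mutants and 2614, 2237 and 2548 in wild type, a change of -0.67 (adjusted p = 0.000235). kars1 for lysine, farsb for phenylalanine and cars1 for cysteine changed by -0.61, -0.63 and -0.41. The call of kars1 was lost after cyclic loess normalization. That of cars1 was lost without any one of 6 arrays, and its other probe set was not called in CNS cells (0.20) or in the rest (0.07). In the rest, cars1 (-0.54) and nars1 (-0.36) were lower, and the median of the synthetases was near 0. The call of nars1 there was lost after quantile (-0.22) and cyclic loess normalization (-0.17) and without any one of 3 arrays. aars1, not called in either fraction in the main setting, was higher in the rest after quantile (0.39) and cyclic loess normalization (0.42). In CNS cells aars1 was higher after cyclic loess (0.27) but was not called after quantile normalization (0.22). eprs1, which was higher in muscle than in its rest, was not called in either fraction.

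The mutant comparisons varied with the brightness of the probe sets. Of the 78 genes 53 lay in the brightest 25% of all features and 26 in the brightest 5%. The mutant arrays had a lower upper end, with 99th percentiles of 2257 to 2493 in mutant CNS cells against 2833 to 3086 in wild-type CNS cells, and of 2373 to 2499 in the mutant rest against 2600 to 2873 in the wild-type rest. Among all features of the brightest 5%, 50.6% were lower in mutant CNS cells with a median of -0.35, beside 69.2% and -0.52 for the 26 translation genes there. In the brightest 25%, 26.3% of all features were lower (median -0.10), beside 52.8% of the translation genes (median -0.39). In the rest of the body the brightest 5% gave 30.8% lower for the translation genes and 35.4% for all features, and the brightest 25% gave 26.4% and 21.1%. After quantile normalization, 24 genes were lower in mutant CNS cells, 23 of them shared with the 31, and after cyclic loess normalization 18 were lower, with 17 shared. eef1a1l1, eef1g and eif5a2 then changed sign.

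**Figure D3:**
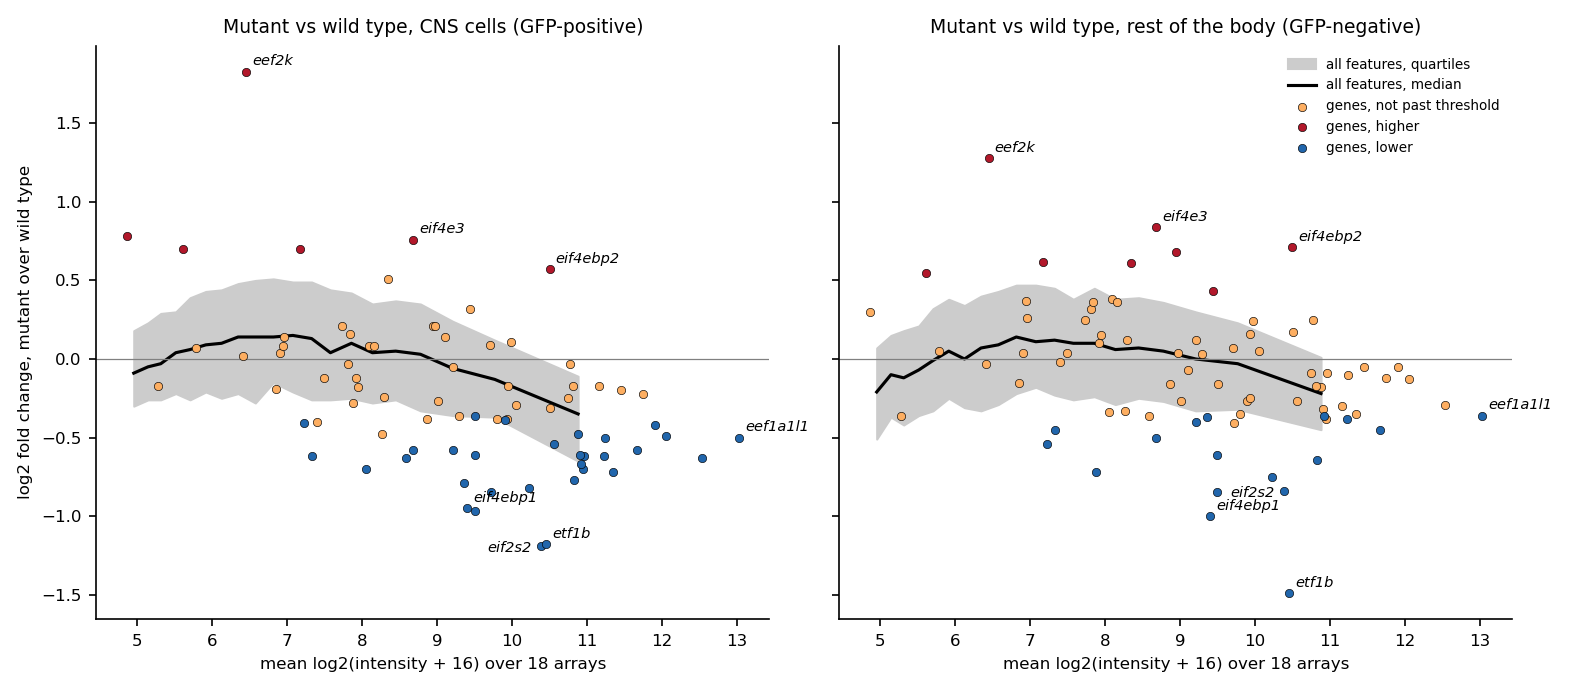
Each point is 1 of the 78 translation genes, with its mean log2(intensity + 16) over the 18 arrays on the horizontal axis and its log2 fold change in mutants over wild type on the vertical axis, in CNS cells (left) and in the rest (right). The line and the grey band are the median and quartiles of all features in 20 bins of brightness. The median falls to -0.35 in the brightest bin in CNS cells. eef2k, eif4e3 and eif4ebp2 lie above the band and etf1b, eif2s2 and eif4ebp1 below it.

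Some of these calls held under all of the alternative settings tried. All 6 genes higher in mutant CNS cells were called under every alternative that kept them. The filter at the 60th percentile left out dim genes such as eef1a1a, which was therefore not tested under it. Of the 31 lower genes 16 were called under every alternative, among them eif2s2, eif4ebp1, etf1b, eif3g, eif3d and eif3ha. In the rest the same held for eef2k, eif4e3, eif4ebp2, eif4g3b and eif2s1b of the 8 higher genes, and for 8 of the 17 lower ones. After cyclic loess normalization the change of eef2k in CNS cells was 1.73, that of eif2s2 -0.94 and that of etf1b -0.92. That of eif3d was -0.34 after cyclic loess, beside -0.72 before. In mutant CNS cells the epidermal markers were also higher. Of 13 proliferation genes 6 were called lower in mutant CNS cells and none was called higher, with sums of 14630 to 16158 in mutants and 19999 to 22134 in wild type. Single genes went both ways in their means. In mutant and wild-type CNS cells these were 3233 and 5324 for pcna and 1206 and 2121 for mcm7. For cdk1 they were 806 and 645, and for ccna2 731 and 599. The part of either list in these results was not tested. In the rest, eef2k, eif4ebp1, eif2s2 and etf1b changed in the same direction. Epidermal markers there summed to 4890 to 6968 in mutants and 5220 to 7127 in wild type. Proliferation genes summed to 11900 to 13100 in mutants and 12890 to 14863 in wild type, but single genes went both ways. Means in the mutant and wild-type rest were 647 and 326 for cdk1 and 462 and 266 for mki67. They were 2859 and 4422 for pcna and 930 and 1376 for mcm7. Red blood cell markers there summed to 1471 to 3088 in mutants and 6799 to 7721 in wild type. Skeletal muscle markers in the rest summed to 3426 to 5022 in mutants and 5364 to 6680 in wild type. Neural markers in the rest summed to 2854 to 4250 in mutants and 2271 to 2701 in wild type. The part of these lists was not tested.

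**Figure D4:**
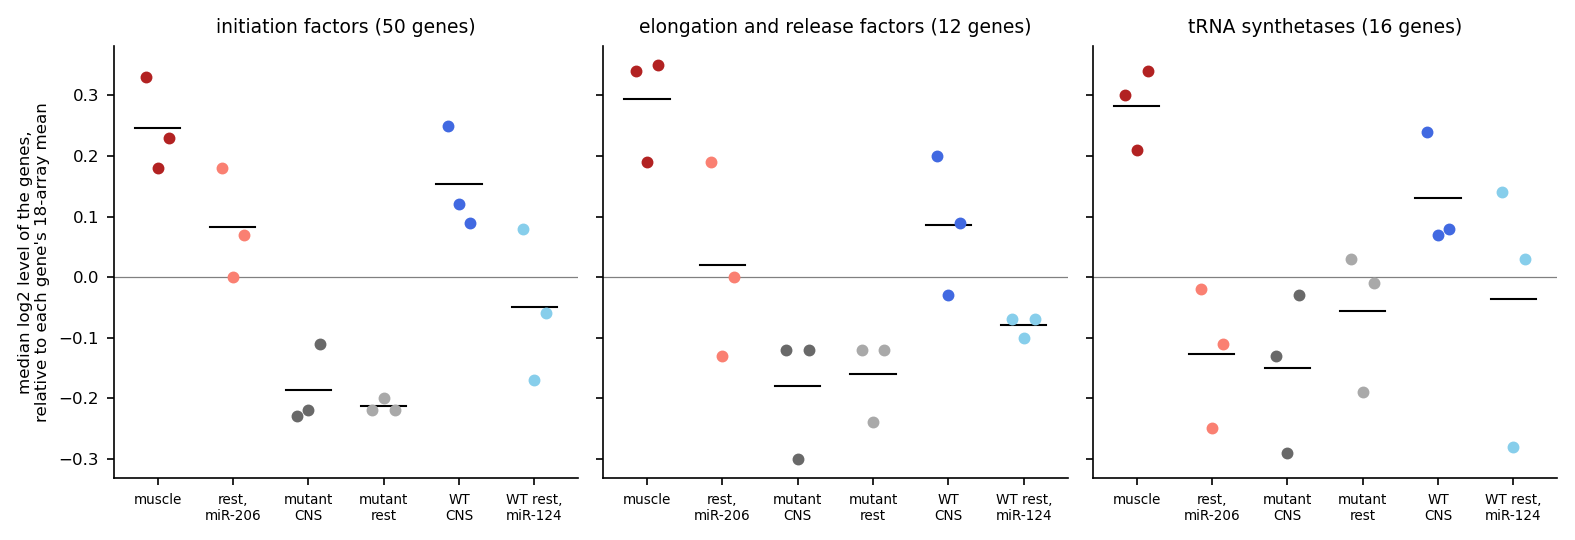
Each point is 1 array and gives the median, over the genes of a family, of the log2 level relative to each gene's mean over the 18 arrays; bars are means of 3 arrays. Initiation factors lie at 0.18 to 0.33 in muscle and at -0.23 to -0.11 in mutant CNS cells. Synthetases lie at 0.21 to 0.34 in muscle and at -0.25 to -0.02 in its rest.

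Signalling and partner genes of translation were described from lists outside the 81 genes. Of 9 measured genes of mTOR and MNK signalling, which sets the activity of the eIF4E-binding proteins and of eIF4E, 6 were higher and 1 lower in mutant CNS cells, and 5 were higher and 1 lower in the mutant rest. Among all features 19.3% were higher and 15.4% lower in CNS cells, and 17.5% higher and 17.4% lower in the rest. In CNS cells mtor itself averaged 94 ± 1.44 for mutants and 55.4 ± 9.62 for wild type, a change of 0.63 (adjusted p = 0.00449), and changed by 0.55 in the rest. mknk1, a kinase of eIF4E, was higher by 0.58 and 0.70, and ddit4, which restrains mTOR, by 0.63 and 0.91. tsc1a, part of another brake on mTOR, changed by -0.42 and -0.55. Both ddit4 and tsc1a were dim, near or below the array medians (31.1 to 45.2). ddit4 averaged 28.6 and 41.7 in mutant CNS cells and rest, and 12.8 and 14.3 in wild type. It may thus have passed the filter through the groups in which it was higher. tsc1a averaged 19 and 21.7 in mutants and 30.8 and 39.3 in wild type. Of 18 measured partners of the translation factors, 7 were lower and 2 higher in mutant CNS cells, and 11 lower and 1 higher in the mutant rest. These included pabpc1a, a poly(A)-binding protein (-0.85 and -0.71), dohh, which completes the modification of eIF5A (-0.97 and -0.75), and rack1, a ribosomal scaffold (-0.82 and -0.57). Of these, pabpc1a and rack1 averaged 7291 and 10204 in wild-type CNS cells, above the 99th percentiles there (2833 to 3086). The brightest 5% of all features had medians of -0.35 in CNS cells and -0.22 in the rest. Values of these partners after quantile and cyclic loess normalization are not given here. Of 17 measured amino acid response genes, known as ATF4 targets in mammals, 1 was higher and 4 lower in mutant CNS cells, and 4 higher and 2 lower in the rest. In muscle against its rest 1 of them was higher and 3 were lower, beside 13.1% of all features higher and 23.1% lower. In wild-type CNS cells against the rest 4 were higher and 4 lower, beside 14.5% of all features higher and 18.3% lower. Of the mitochondrial factors and synthetases, wars2 was lower in both mutant fractions (-0.53 and -0.44) and no other was called there.

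Muscle and CNS cells of the wild-type lines were compared directly, and 13 genes were higher in muscle and 5 lower, beside 18.3% of all features higher and 26.1% lower. eif6 read 846, 974 and 918 in muscle and 491, 524 and 537 in CNS cells, a change of 0.80 (adjusted p = 0.000245). eif4ebp3l read 464, 441 and 509 in muscle and 243, 259 and 263 in CNS cells, a change of 0.84 (adjusted p = 0.000924). eif4ebp1 was higher by 0.66, eprs1 by 0.57 and wars1 by 0.57 (adjusted p = 0.000299, 0.00563 and 0.00873). These 5 calls held under every alternative. eef1akmt2, which methylates eEF1A, was higher by 0.49 (adjusted p = 0.0146). eif1axa was higher by 0.34 (adjusted p = 0.0192), and cars1, eif1axb, eef1a1l1, eif5a and tars1 by 0.29 to 0.41. The remaining gene, etf1b, was higher by 0.56 on its brightest probe set but changed by -0.78 and -0.35 on 2 of its others, so its direction was not settled. It was the 1 case of opposite calls among the 112 pairs of a comparison and a gene with several probe sets.

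The genes lower in muscle than in CNS cells were led by eif4g3a, with 64.1, 68.2 and 62.9 in muscle and 156, 163 and 163 in CNS cells. Its change was -1.13 (SE 0.18, adjusted p = 2.51e-05), or 2.18-fold lower. eif4e3 changed by -0.66 and eif4g3b by -0.58 (adjusted p = 0.00068 and 0.00558), so 3 of the 5 genes take part in cap binding. aars1 changed by -0.29, and eef1a1a, at 1.7, 5.7 and 9.1 in muscle and 15.5, 10.9 and 22.4 in CNS cells, by -0.58. The count of 13 higher genes became 8 without muscle replicate 3, 7 without CNS replicate 2 and 8 without CNS replicate 3. Of 13 proliferation genes 12 were lower in muscle than in CNS cells. pabpc4, from the list of partners, is a poly(A)-binding protein and averaged 983 ± 323 in muscle and 36.3 ± 17.4 in CNS cells, a change of 4.27 (adjusted p = 1.68e-11).

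The GFP-negative cells of the miR-206 and wild-type miR-124 lines gave 1 call, beside 2.23% of all features higher and 3.9% lower. eif2b1 read 429, 330 and 302 in the rest of the miR-206 line and 274, 156 and 250 in the rest of the miR-124 line, a change of 0.63 (adjusted p = 0.0456). The call of eif2b1 was lost when any one of 13 of the 18 arrays was left out, and without replicate 1 of the miR-124 rest 3 genes were higher. No gene was called lower, and 3 were lower at an unadjusted p under 0.05 in limma. For 4 of the 78 genes (5.13%) the arrays of these groups did not overlap, against 17.7% of all features. The corresponding shares were 66.7% against 56.1% for mutant against wild-type CNS cells, 44.9% against 46.1% for mutant against wild type in the rest, and 39.7% against 42.4% for muscle against its rest. They were 17.9% against 43.1% for wild-type CNS cells against the rest, 24.4% against 38.7% for mutant CNS cells against the rest, and 39.7% against 56.7% for muscle against CNS cells.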

How the data were processed

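Linear intensity values, one per probe set and array, were deposited by the authors, and the submitters' processing notes name MAS5 as the tool; the sources used here give no version, detection calls or dates. Each of the 18 arrays had the same 2% trimmed mean. Symbols came from the platform's annotation, updated through RefSeq where possible. Of 15617 probe sets, 115 controls were left out. Values were taken as log2(intensity + 16), probe sets above the 40th percentile of their array on at least 3 arrays were kept (10704), and the brightest probe set stood for a gene (9548 features). limma 3.58.1 in R 4.3.3 fitted 1 mean per group to all arrays (12 residual degrees of freedom, intensity trend), with two-sided p-values adjusted by Benjamini-Hochberg over all features. An exact test of 3 against 3 arrays cannot go below p = 0.1, so none was used. The members, gene lists and comparisons were chosen with earlier results of these data known. Members given in full are, per comparison and direction, up to 8 with the smallest adjusted p; other named genes come from their role or from the lists of translation partners, mTOR and MNK signalling, amino acid response, mitochondrial factors and cell type markers. The labels do not state whether replicate numbers pair the fractions. Residual correlations of same-numbered fractions were 0.367, 0.372 and 0.203 in the miR-206 line and 0.104, 0.275 and 0.297 in the mutant line. Same-numbered arrays of different lines, which are not pairs, also reached 0.281 (GFP-negative cells of the miR-206 and wild-type miR-124 lines), so pairing was not settled. Settings varied one at a time were the pseudocount, the filter, centring, quantile and cyclic loess normalization (the last chosen after the lower upper end of the mutant arrays was seen), the mean over probe sets, array weights, the variance trend, the replicate block and each array left out. The test was checked on simulated data. The number of arrays limits the precision.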

Additional observations from a re-analysis of the deposited data

How the results depend on the processing

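Of 107 calls of a gene in a comparison, 50 held under each of the 29 alternative settings that kept the gene, and 57 were lost in at least 1. The stricter filter left out dim genes such as eef1a1a, whose calls were not recomputed there. Of 3097 recomputed values, 2827 kept direction and call, 260 lost the call and 10 changed sign. The cause was not tested. The sign changes were eef1a1l1 in muscle against rest (-0.02, quantile normalization), mutant against wild-type CNS cells (0.09 quantile, 0.14 cyclic loess) and the rest (0.02 and 0.07), eef1g (0.04 and 0.00) and eif5a2 (0.14 and 0.05) in mutant CNS cells, and etf1b in muscle against CNS cells (-0.20, mean over probe sets). Counts higher in muscle than its rest were 36 with arrays centred on their median, where the median of all features was 0.14 in place of -0.06, and 22 with array weights, 21 with the replicate block and 7 to 23 with an array left out, against 13; counts lower were 0 after centring and 1 after quantile normalization, against 2. For wild-type CNS cells against rest, 26 were higher after centring (median of all features 0.17), 2 after cyclic loess, 14 with the replicate block and 1 to 13 with an array left out, against 8, and 1 was lower with cyclic loess, array weights, the replicate block and some arrays left out (0 to 1). There the residual correlations of same-numbered fractions were 0.181, 0.00284 and -0.0859. For mutant CNS cells against rest, 1 was higher with a pseudocount of 1 or the filter at the 60th percentile (1 to 2 with an array left out) and 0 lower after centring (0 to 1). For mutant against wild type, cyclic loess left 18 lower in CNS cells, and leaving out an array gave 5 to 10 higher and 10 to 23 lower in the rest. Muscle against CNS cells gave 7 to 14 higher. The GFP-negative fractions gave 0 higher with a pseudocount of 1, no filter, cyclic loess or array weights, 2 with a pseudocount of 64, the stricter filter or centring, 3 with the replicate block and 0 to 3 with an array left out; 1 was lower after quantile or cyclic loess normalization (0 to 1). The replicate block changed no other count by over 1.5 times and lost no call. For comparisons between lines the block tied same-numbered arrays of different lines, which are not pairs, so it is no check on pairing there. Dim genes (eef1a1a, eif3hb) and paralogues that may share probes limit precision.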
